A study of Mus musculus with 4 samples.

Results

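The genes described here are 10 mouse regulators of cell division that have been tied to limb bud growth under Sonic hedgehog (SHH): the cyclins Ccnd1, Ccnd2, Ccnd3 and Ccne1, the kinases Cdk4 and Cdk6, the transcription factors Mycn, Myc and E2f1, and the inhibitor Cdkn1a. They were chosen by name, out of 21938 protein-coding genes, by a rule that uses no measured value, though with earlier results of these data known. For each gene, every ATAC-seq peak that touched the gene body or the 50 kb on either side was collected, and the peaks of the 4 libraries merged into 99 regions, of 44692 regions in all. ATAC-seq marks open chromatin with a transposase that cuts accessible DNA. The libraries came from posterior forelimb buds of E10.5 embryos (35 somites) on the Swiss Webster background, 2 of them WT and 2 Shh-/-, with 5000 cells and 18 PCR cycles each. Shh-/- embryos are homozygous for the null allele Shhtm1amc in every cell of the animal, and each library held the paired posterior forelimb fractions of 1 embryo, so replicates are separate embryos.

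Cells commit to a round of division before they replicate their DNA. D-type cyclins bind CDK4 or CDK6, and the active kinase phosphorylates the retinoblastoma protein, which releases E2F factors. E2F factors and cyclin E with its own kinase then start DNA replication, MYC proteins feed into the pathway from above, and the product of Cdkn1a blocks the cyclin-kinase complexes. In the limb bud, SHH from the posterior margin is known both to pattern the digits and to keep mesenchymal cells dividing, and the GLI factors that carry its signal act as repressors when the ligand is missing.

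A peak list gives positions and a score but no read counts, so the depth of each library is unknown, and a peak that was not called does not show closed chromatin. In bulk tissue, a smaller share of cells with an open site and less open chromatin per cell cannot be told apart. The replicates are written rep1 and rep2, as the titles number them. The lists held 39080 (WT rep1), 11973 (WT rep2), 5589 (Shh-/- rep1) and 18459 peaks (Shh-/- rep2). Longer lists reach weaker sites, and peak height is therefore given as a percentile within each list, where 100% is the strongest peak and tied scores share the middle value. A percentile also rises with the length of the list it comes from, and each value is read with that in mind. Promoters of 5 limb mesenchyme markers carried a peak in 5, 4, 3 and 5 cases in the order above. Of 13 markers of limb ectoderm, endothelium and blood, 3 promoters were called in WT rep1, 4 in Shh-/- rep2 and 0 in the other two. Of 3 muscle progenitor markers, 3, 1, 0 and 3 were called in the order above. The forelimb marker Tbx5 was called in WT rep1 only, and of the hindlimb markers Pitx1 and Tbx4, 2 were called there and 1 in Shh-/- rep2. Of 3 posterior limb markers (Hand2, Hoxd12 and Hoxd13), 3 were called in WT rep1, 1 in Shh-/- rep2 and 0 in the others. The part that depth or cell makeup has in the values below was not tested.

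Promoters of the 10 genes were called in every library except the one with the shortest list, where 4 were called. A promoter ran from 2 kb before to 1 kb after any annotated transcription start site (TSS). All 10 genes had a promoter peak in WT rep1, WT rep2 and Shh-/- rep2, and 4 of 10 had one in Shh-/- rep1. These calls depended on list length. With every list limited to its 5589 strongest peaks, Ccnd1, Ccnd2, Cdk4 and Myc kept a promoter peak in 4 libraries. Ccne1 and E2f1 kept one in 3, all but Shh-/- rep1. Ccnd3 then had one in Shh-/- rep2 alone, Mycn in WT rep1 alone, and Cdk6 and Cdkn1a in 0 libraries. The background over protein-coding genes was 60.4% in WT rep1, 39.2% in WT rep2, 51.3% in Shh-/- rep2 and 17.3% in Shh-/- rep1. Ccnd1, Ccnd2, Cdk4 and Myc were the 4 genes called in all 4 libraries, against 16.1% of protein-coding genes. Ccnd3, Ccne1, Cdk6, Mycn, E2f1 and Cdkn1a were called everywhere except in Shh-/- rep1, a pattern held by 21.1% of protein-coding genes. No member was called in both WT libraries and neither Shh-/- library, a pattern that 1.53% of protein-coding genes showed.

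**Figure D1:**
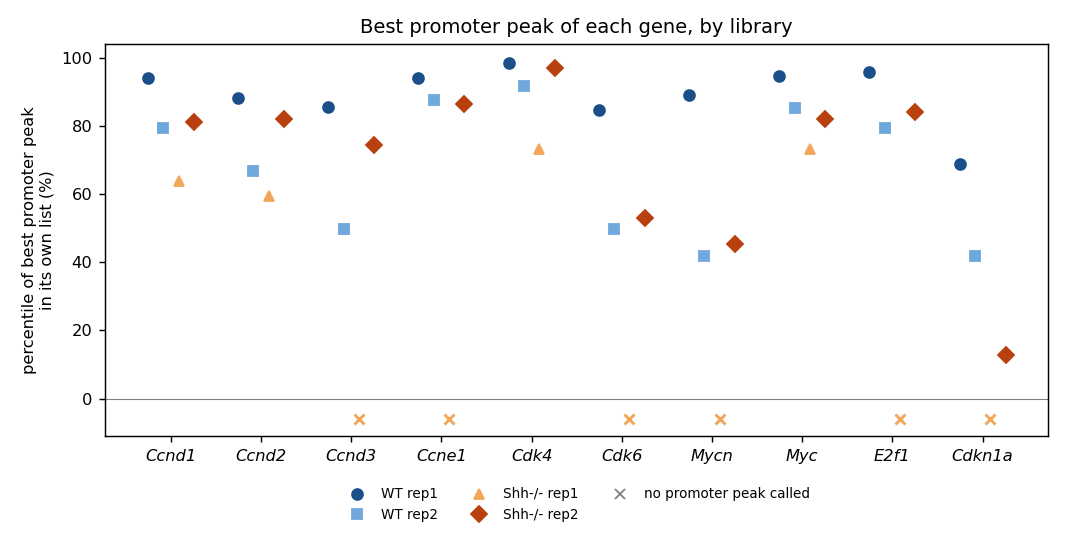
Percentile of the best promoter peak of each gene within its own peak list (vertical axis, %) for the 10 genes, with 1 symbol per library and crosses below 0 where no promoter peak was called. Cdk4 stood highest in each WT and Shh-/- library or shared the highest value, Cdkn1a stood lowest or shared the lowest value where it was called, and all 6 crosses belong to Shh-/- rep1.

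The D-type cyclins, which couple growth signals to the cycle, were represented by 3 genes with different promoter layouts. At Ccnd1 (chromosome 7, 144929931 to 144939925, minus strand, mm10) the best promoter peak stood at 94.1% in WT rep1, 79.4% in WT rep2, 63.8% in Shh-/- rep1 and 81.2% in Shh-/- rep2. The groups overlapped, with Shh-/- rep2 between the WT libraries. This peak was not at the start of the gene. Its region, 144941148 to 144942198, had its summits between -1797 and -1718 bp from the TSS in the 4 libraries, within 79 bp of each other. The region over the TSS itself, 144939529 to 144940566, was lower in each library that had it, at 74.9% in WT rep1, 14.6% in Shh-/- rep1 and 35.4% in Shh-/- rep2, and was not called in WT rep2. Within the gene, an intronic region 2.07 kb downstream of the TSS (144937561 to 144937980) was called in all 4 libraries at low percentiles of 33.7%, 31.7%, 6.01% and 28.9%. It was the only intronic region in any of the 10 windows with a call in every library.

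Beyond the promoter, the Ccnd1 window held the largest number of regions, 19, with 13 peaks in WT rep1, 4 in WT rep2, 4 in Shh-/- rep1 and 14 in Shh-/- rep2. Ccnd1 was one of 2 genes, with Cdk6, at which Shh-/- rep2 had more peaks than WT rep1. A region 3.54 kb upstream (144942529 to 144943649) was called at 77.7% in WT rep1, 31.7% in WT rep2 and 45.2% in Shh-/- rep2. The neighbouring promoter of LTO1, 24.9 kb from the Ccnd1 TSS, reached 87.2%, 70.7% and 49.3% in the same 3 libraries. The promoter of Fgf15, which encodes a fibroblast growth factor, was called in WT rep1 at 73.1% and in Shh-/- rep2 at 35.4% only.

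Ccnd2 (chromosome 6, 127125162 to 127152193, minus strand) carried 1 broad promoter region of 3776 bp in which all 4 libraries had a peak. Its best peak stood at 88.2% in WT rep1, 66.7% in WT rep2, 59.3% in Shh-/- rep1 and 82.1% in Shh-/- rep2, so the groups overlapped. WT rep1 covered the whole stretch as a single peak, whereas the others had shorter peaks inside it, and the summits of the best peaks were spread over 643 bp. Most of the region lay upstream of the first TSS of the basic annotation, at 127151060. The annotated gene begins further upstream, at 127152193, and the summits of the best peaks, from 127152044 to 127152687, lay around that end. With a promoter of 500 bp on either side of a TSS, Ccnd2 was called in 2 libraries and Ccnd1 in 3, instead of all 4. With a promoter at the 5′ end of the annotated gene, Ccnd2 was called in 4 libraries. The remaining regions of the Ccnd2 window were called in 1 library each, except an exon of Fgf23 (63% in WT rep1, 5.24% in Shh-/- rep2) and the promoter of Tigar (81.2% in WT rep1, 14.6% in Shh-/- rep1 and 45.2% in Shh-/- rep2).

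Ccnd3 (chromosome 17, 47505051 to 47599691, plus strand) is long and has 6 annotated TSSs. Its best promoter peak, at 47593071 to 47594047, sat at an internal TSS, with its summit 88409 bp inside the gene, and reached 85.4% in WT rep1, 49.7% in WT rep2 and 74.4% in Shh-/- rep2. Shh-/- rep2 again lay between the WT libraries, and Shh-/- rep1 had no call. At the first TSS of the gene no library had a promoter peak. Further internal starts carried a region in WT rep1 and Shh-/- rep2 (47595300 to 47596158, 58.6% and 40.7%) and a region in WT rep1 alone (47594527 to 47595072, 33.7%). An intronic region 6.18 kb downstream of the nearest TSS (47511096 to 47511684) was called at 86%, 56.3% and 49.3% in the same 3 libraries as the promoter. The peaks of the Ccnd3 window that all 4 libraries shared belonged to neighbours. The promoter of Taf8, a subunit of the general transcription machinery, stood at 93%, 77.1%, 70.5% and 91.5%, and that of Usp49, a ubiquitin protease, at 93%, 70.7%, 24% and 92%.

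**Figure D2:**
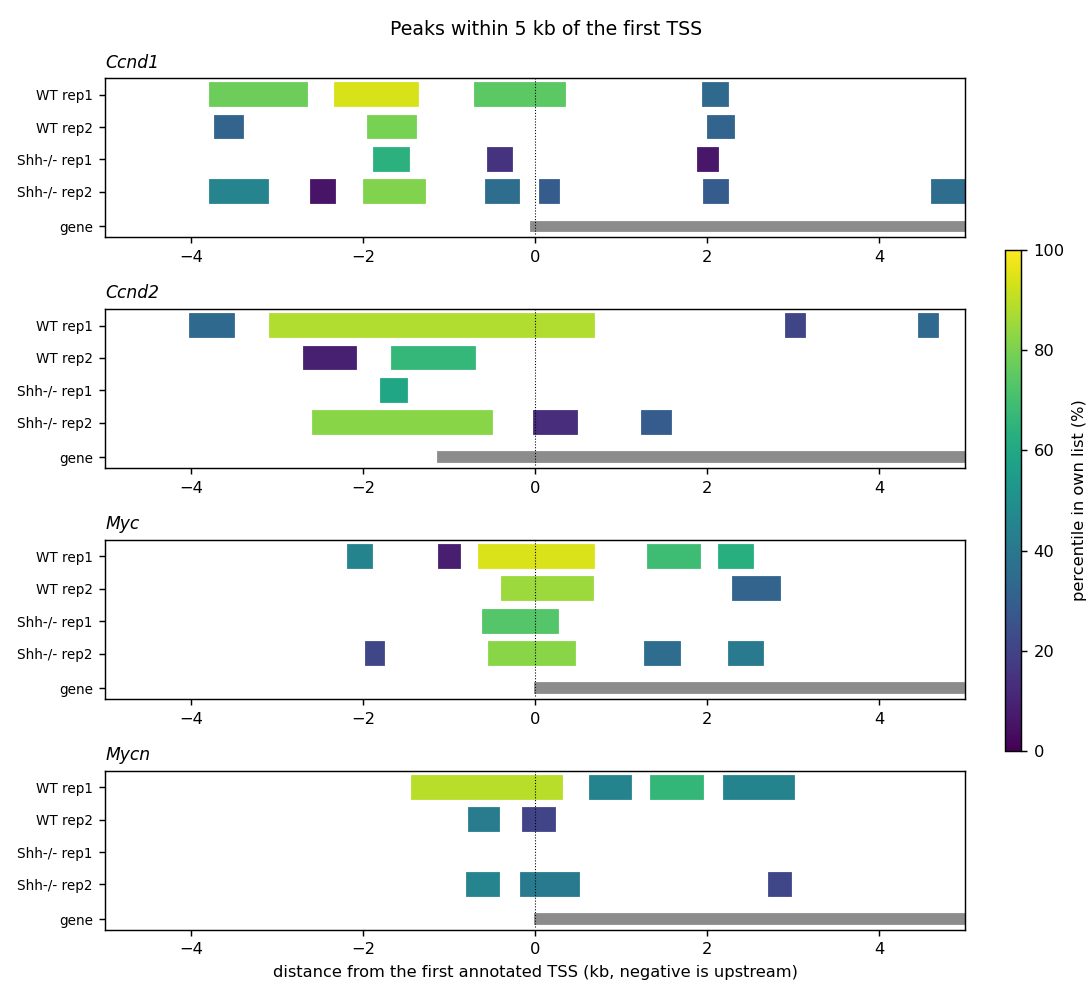
Peaks of the 4 libraries within 5 kb of the first annotated TSS of Ccnd1, Ccnd2, Myc and Mycn, drawn to scale by distance from that TSS (horizontal axis, kb, upstream to the left) and coloured by percentile in their own list. The strongest Ccnd1 peak lies upstream of the TSS in all 4 libraries, Myc has its strongest peak over the TSS, and Mycn has no peak in Shh-/- rep1. Ccnd2 peaks extend upstream of its first TSS, around the 5′ end of the annotated gene.

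Ccne1 encodes cyclin E1, which acts after the D-type cyclins at the entry into DNA replication. Its gene (chromosome 7, 38097984 to 38107534, minus strand) had no other protein-coding gene in its window. The promoter region, 38106696 to 38108285, stood at 93.9% in WT rep1, 87.7% in WT rep2 and 86.5% in Shh-/- rep2. It was not called in Shh-/- rep1, although it outranked the Ccnd1 and Ccnd2 promoters, which that library did have, in WT rep2 and in Shh-/- rep2. The summits of the 3 libraries fell within 18 bp, and the 200 bp around them had a GC content of 78.5%. What Shh-/- rep1 did have in this window was an intergenic region 22.4 kb downstream of the TSS, past the end of the gene. That region (38084670 to 38085659) was called in all 4 libraries, at 96.4%, 70.7%, 48% and 85.8% for WT rep1, WT rep2, Shh-/- rep1 and Shh-/- rep2, and was the only intergenic region of the 10 windows for which this held. In WT rep1 it stood above the promoter, while in WT rep2 and Shh-/- rep2 the promoter stood higher. A region at a noncoding gene 46.2 kb downstream (38061001 to 38061762) reached 77.7%, 61.9% and 21.3% in the libraries other than Shh-/- rep1.

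The intergenic region is shown because every library called it outside any annotated promoter. The 200 bases centred on its summit, chr7:38084992-38085191 in the mm10 reference (RefSeq GRCm38.p6), are printed on the minus strand, that of Ccne1. Capitals mark a match to the GLI motif GACCACCCA with 1 mismatch, starting at base 5 of the printed run.
Ccne1 intergenic region: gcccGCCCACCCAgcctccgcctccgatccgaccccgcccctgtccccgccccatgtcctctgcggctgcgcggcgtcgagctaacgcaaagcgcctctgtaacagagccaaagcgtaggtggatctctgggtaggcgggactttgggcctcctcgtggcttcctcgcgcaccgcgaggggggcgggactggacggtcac
The stretch had a GC content of 70.5% and an observed to expected CpG ratio of 0.895. GLI matches of this kind, searched on both strands in 200 bp around each summit, occurred in 7 of the 99 regions (7.07%), beside 5.62% of all regions, so the match sets these windows little apart.

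Cdk4, the kinase partner of the D-type cyclins, had the most uniformly strong promoter of the set. Its gene (chromosome 10, 127063534 to 127067920, plus strand) is short, and the promoter region spanned 127063177 to 127064108. The peak stood at 98.4% in WT rep1, 91.6% in WT rep2, 73.3% in Shh-/- rep1 and 97% in Shh-/- rep2, which were ranks 631, 954, 1419 and 546 in their lists. By percentile it came first among the 10 genes in 3 libraries and shared the first place with Myc in Shh-/- rep1. The groups overlapped, since Shh-/- rep2 lay above WT rep2. The summits of all 4 libraries fell within 11 bp, the tightest of the members, between -68 and -57 bp from the TSS. The rest of the window was crowded, with 9 other protein-coding genes and 15 peaks in WT rep1 against 2, 2 and 5 in the other libraries. Of its 15 regions, 10 were called in 1 library. Outside promoters, the most widely called was in an intron of March9 5.52 kb upstream of the TSS (127057992 to 127058477), at 33.7% in WT rep1 and 5.24% in Shh-/- rep2.

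The bases upstream of the Cdk4 TSS are shown because they lie under the strongest and most precisely placed peak. They are chr10:127063384-127063533 on the plus strand, ending at the base before the TSS, and capitals mark the E-box CACGTG, the sequence that MYC proteins bind with their partner MAX.
Cdk4 promoter: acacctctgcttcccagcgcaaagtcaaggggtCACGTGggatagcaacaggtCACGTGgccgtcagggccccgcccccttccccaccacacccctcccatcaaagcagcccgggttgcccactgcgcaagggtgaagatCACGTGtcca
The E-box occurred 3 times, at bases 34, 54 and 141 of the run. Among the promoter regions of the 10 genes, Cdk4 was the only gene with an E-box in the 200 bp around a summit, where 8.07% of the 13630 protein-coding genes with a promoter region had one. The motif reads the same on both strands and was counted once per position. A match in these letters is a description of the sequence and shows no binding.

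Cdk6, the other kinase partner of the D-type cyclins, differed in layout. The gene (chromosome 5, 3341485 to 3531008, plus strand) is 189524 bp long, and its promoter region of 3533 bp had its best peaks at 84.7% in WT rep1, 49.7% in WT rep2 and 53% in Shh-/- rep2, with summits spread over 944 bp and no call in Shh-/- rep1. Again Shh-/- rep2 fell between the WT libraries. Inside the gene, peaks were called in as many libraries as at the promoter. An intronic region 55.9 kb downstream of the nearest TSS (3399849 to 3400414) was called at 76.4% in WT rep1, 40.8% in Shh-/- rep1 and 59.2% in Shh-/- rep2, but not in WT rep2. It was the one site of Cdk6 in the smallest list. A second intronic region at 61.1 kb (3405166 to 3405753) stood at 80.1% in WT rep1 and 78.8% in Shh-/- rep2, and a weaker region at 143 kb (3486950 to 3487425) at 33.7% and 40.7% in the same pair of libraries. In Shh-/- rep2 the regions at 55.9 kb and 61.1 kb both ranked above the promoter. The fifth region of the window lay past the end of the gene at the promoter of Fam133b (3543685 to 3544211) and stood at 83.9% in WT rep1, 61.9% in WT rep2 and 64.6% in Shh-/- rep2.

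The region at 55.9 kb is shown because it was called in both Shh-/- libraries and in 1 WT library, and because its GC content was the lowest. The 200 bases around its summit, chr5:3400065-3400264 on the plus strand, held none of the GLI, E2F or E-box motifs, so no letters are in capitals.
Cdk6 intronic region: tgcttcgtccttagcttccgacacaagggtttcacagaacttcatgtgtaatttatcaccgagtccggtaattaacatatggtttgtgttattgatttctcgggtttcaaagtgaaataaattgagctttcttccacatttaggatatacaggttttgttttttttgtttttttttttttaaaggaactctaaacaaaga
Its GC content was 33%, the lowest of the 99 regions, where the 30 regions of the windows called in 3 or 4 libraries had a median of 64.8% and ranged from 33% to 78.5%. The 51 window regions outside promoters had a median of 54.5%, and the March9 intronic region near Cdk4 had 34.5%.

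**Figure D3:**
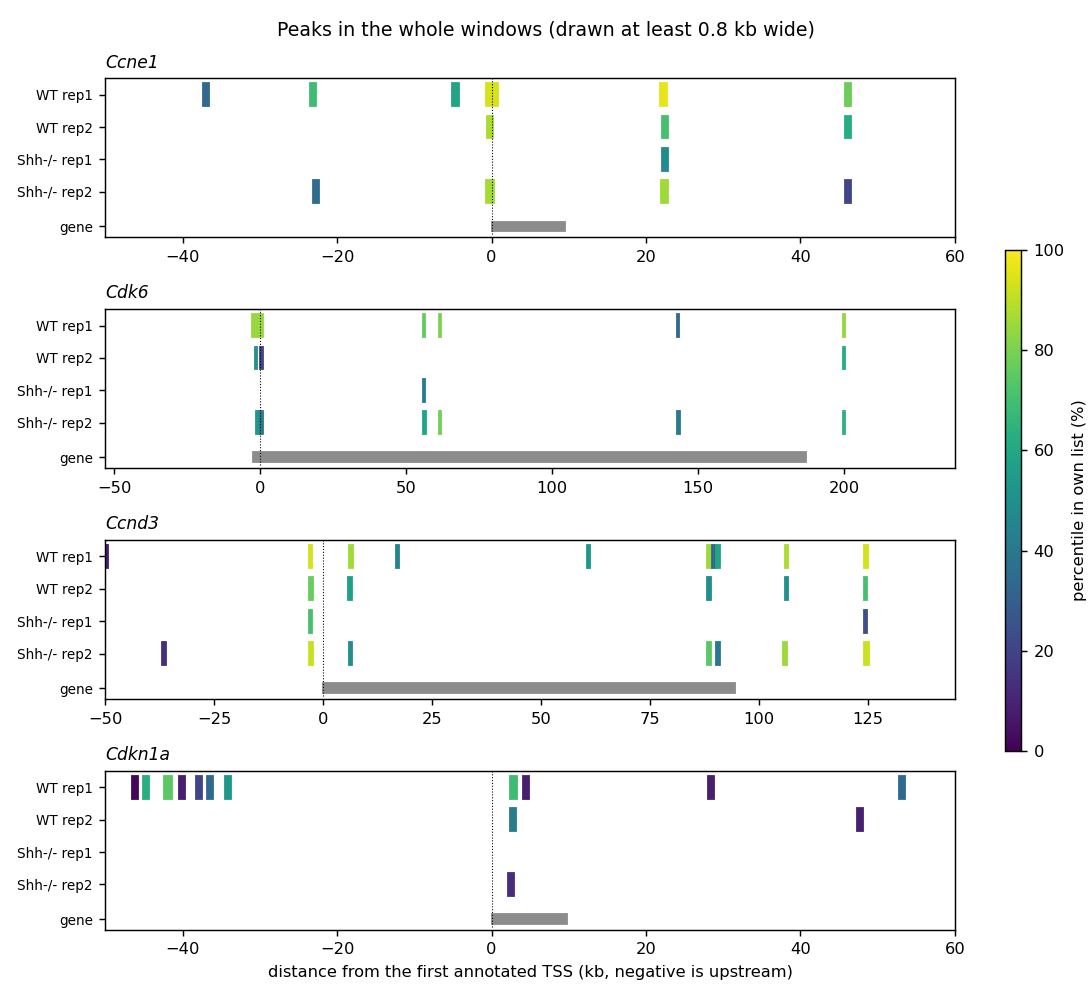
Peaks in the windows of Ccne1, Cdk6, Ccnd3 and Cdkn1a by distance from the first annotated TSS (horizontal axis, kb, upstream to the left), with 1 row per library, colour for percentile in the own list and a minimum drawn width of 0.8 kb. Shh-/- rep1 has the region 22.4 kb downstream of the Ccne1 TSS and no Ccne1 promoter peak, Cdk6 peaks lie at the promoter, inside the gene and, 200 kb from the nearest TSS, at the promoter of Fam133b past its end, and the Cdkn1a window holds 11 peaks in WT rep1 against 2, 0 and 1 in the other libraries.

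Myc and Mycn encode related transcription factors that drive growth, and Mycn is known for its part in the growth of limb mesenchyme. Their promoters differed in these lists. At Myc (chromosome 15, 61985391 to 61990374, plus strand) the region over the first TSS (61984730 to 61986073) stood at 94.5% in WT rep1, 85.1% in WT rep2, 73.3% in Shh-/- rep1 and 82.1% in Shh-/- rep2. Both WT values were above both Shh-/- values, and by rank (2127, 1697, 1419 and 3215) the order was different and the groups overlapped. The summits fell within 61 bp of each other, at -3 bp from the TSS in WT rep1, 58 bp in WT rep2, 8 bp in Shh-/- rep1 and 31 bp in Shh-/- rep2, where negative is upstream. A region at an internal start (61987526 to 61988239) was called at 63%, 31.7% and 40.7% in the libraries other than Shh-/- rep1, 2 more promoter regions were called in WT rep1 and Shh-/- rep2 alone, and a weak one (61984271 to 61984520) in WT rep1 alone at 8.24%. The promoter of the long noncoding RNA Pvt1, downstream of Myc, was weak at 44.7%, 31.7% and 21.3%.

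Mycn (chromosome 12, 12936093 to 12941914, minus strand) had no peak anywhere in its window in Shh-/- rep1, and neither had Cdkn1a. In the other libraries the promoter region at 12941401 to 12943351 stood at 89.1% in WT rep1, 41.7% in WT rep2 and 45.2% in Shh-/- rep2. WT rep1 was far above the others, and the WT libraries differed from each other by more than Shh-/- rep2 differed from WT rep2. WT rep1 covered the first TSS and the bases upstream with a single peak of 1748 bp, while WT rep2 and Shh-/- rep2 each had a pair of shorter peaks in its place, the ones at the TSS 370 bp and 678 bp long. Those TSS peaks stood at 20.1% in WT rep2 and 40.7% in Shh-/- rep2. The percentiles given above for these libraries belong to the upstream peak of each pair. Of the 3 further promoter regions, around the internal start, 2 were called in WT rep1 alone, and the third (12938904 to 12939714) stood at 44.7% in WT rep1 and 21.3% in Shh-/- rep2. Outside promoters the Mycn window held a single region, in WT rep1, at an exon of a noncoding gene 33.9 kb away.

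The bases upstream of the first Mycn TSS are shown because their E2F matches outnumbered those at any other promoter region of the 10 genes. They are chr12:12941915-12942064 on the minus strand, ending at the base before the TSS, with capitals for the E2F motifs.
Mycn promoter: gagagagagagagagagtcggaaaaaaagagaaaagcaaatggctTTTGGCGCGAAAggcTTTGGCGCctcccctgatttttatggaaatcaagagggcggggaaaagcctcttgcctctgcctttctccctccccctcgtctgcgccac
The motifs searched were TTTCCCGC, TTTGGCGC and TTTCGCGC on both strands. Matches began at bases 46, 50 and 61, and the one at base 50 overlaps the one at base 46 and lies on the opposite strand. An E2F match stood within the 200 bp around a promoter summit at 5 of the 10 genes (Ccnd1, Ccnd3, E2f1, Myc and Mycn). The same held for 12 of the 46 other cell cycle genes described below (26.1%) and for 2.95% of protein-coding genes with a promoter region. A match in any promoter region of a member counted. At Ccnd3 it lay only in the region called in WT rep1 alone, at 33.7%, and not in the best promoter region. At Ccnd1 it lay in the region with its summit 1718 bp upstream, and not in the region over the TSS. In the RefSeq promoter sequences (250 bases before to 50 after a start), which cover 7 of the members and other bases than the summits do, an E2F match was found at 1 gene, Mycn, beside 2.12% of genes, and was not found at Ccnd3 or E2f1. An E-box was found there at Cdk4 and Cdk6, beside 8.09% of genes, and a GLI match at 0 members, beside 7.73%. Several of these genes are textbook targets of E2F factors, and no value in these lists shows whether a factor was bound.

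E2f1 encodes the E2F factor that the retinoblastoma protein holds in check. At its gene (chromosome 2, 154559407 to 154569892, minus strand) the promoter region 154568828 to 154570503 stood at 95.8% in WT rep1, 79.4% in WT rep2 and 84.1% in Shh-/- rep2, with summits at -27, -54 and 7 bp from the TSS. Shh-/- rep2 lay between the WT libraries. Shh-/- rep1 did not call it, although in WT rep1 and Shh-/- rep2 it ranked above Ccnd1, Ccnd2 and Myc, which Shh-/- rep1 called. In WT rep2 it stood above Ccnd2, level with Ccnd1 and below Myc. The 1 peak of Shh-/- rep1 in this window was at the promoter of Pxmp4, 33.9 kb upstream, which encodes a peroxisomal membrane protein and stood at 96.6%, 74.2%, 84.8% and 95.2% in the 4 libraries. The window holds 7 other protein-coding genes, and 8 of its 10 regions lay at promoters of coding genes, E2f1 included. Of the other two, the region in an exon of Necab3, 24.4 kb from the E2f1 TSS (154545042 to 154545474), was called in WT rep1 alone at 33.7%, and an intergenic region in WT rep2 alone at 31.7%.

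Cdkn1a, the inhibitor of the set and a known target of the p53 protein, had the weakest promoter. In its gene (chromosome 17, 29090976 to 29100727, plus strand) the first TSS had no peak in any library, and the only promoter region (29093338 to 29094269) lay at an internal TSS, with its summit 3012 bp from the first. It stood at 68.9% in WT rep1, 41.7% in WT rep2 and 12.8% in Shh-/- rep2, and was not called in Shh-/- rep1. Both WT libraries were above both Shh-/- libraries if the missing call in Shh-/- rep1 is placed lowest. The summits were spread over 301 bp. The single peak of Shh-/- rep2 in the whole window was this one. WT rep1 had 11 peaks in the window, of which 10 were called in no other library, 7 of them in a cluster from 46.2 to 34.2 kb upstream of the first TSS. Their percentiles ranged from 1.49% to 74.9%.

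Over all promoters, WT rep1 had the highest percentile at 10 of 10 genes. Among the other libraries, Shh-/- rep2 stood above WT rep2 at 7 genes and below it at 3, which were Ccne1, Myc and Cdkn1a. Those were also the 3 genes at which both WT libraries stood above both Shh-/- libraries, a pattern of 11.3% of protein-coding genes, and no member stood higher in both Shh-/- libraries, against 0.0228% of protein-coding genes. Of the 21938 protein-coding genes in these backgrounds, 8308 had no promoter peak in any library and could show neither pattern. Which genes were ahead turned on how height was expressed. By rank in place of percentile, 5 members were ahead in both WT libraries (Ccne1, Cdk6, Mycn, E2f1 and Cdkn1a, background 12.6%) and 1 in both Shh-/- libraries (Ccnd2, background 3.46%). Ccnd2 stood at rank 4527 and 3727 in WT and at rank 2138 and 3215 in Shh-/-. With every list limited to its 5589 strongest peaks, the size of the smallest list, Ccne1 and E2f1 were ahead in WT (background 6.45%) and Ccnd2 in Shh-/- (background 2.98%). In each of these orderings, a promoter that was not called was placed lowest in its library. Ccne1 alone was ahead in both WT libraries under all 3 of them. It and the other 4 genes ahead by rank had no call in Shh-/- rep1, so their place there rests on a missing call. Of the 3 genes ahead by percentile, Myc alone was called in all 4 libraries. With peaks under a score of 50 left out, 0 members were ahead in both WT libraries. The exact permutation test used here cannot go below p = 0.33 with 2 libraries against 2, so these orders are given as a description.

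Other genes of the cycle were compared by the same calls. Of 46 other cell cycle genes (further cyclins, kinases, inhibitors, E2F and MYC network genes and replication factors), a promoter peak was called for 46 in WT rep1, 36 in WT rep2, 22 in Shh-/- rep1 and 46 in Shh-/- rep2. In all 4 libraries 20 of them were called (43.5%), beside 4 of the 10 members. Called in all but Shh-/- rep1 were 16 (34.8%), beside 6 members, and in only 2 libraries 8 (17.4%), beside 0 members. These differences were not tested. The median percentile over these genes, with genes not called set at 0, was 90.5%, 72.5%, 0% and 79.4%. For the 10 members it was 91.5%, 73%, 0% and 81.6%, and for all protein-coding genes it was 58.6%, 0%, 0% and 12.8%. Over the members the mean of the library medians was 82.3% ± 13 (SD, n = 2) in WT and 40.8% ± 57.7 (SD, n = 2) in Shh-/-. The difference of 41.4 points was larger than the SD in WT and smaller than the SD in Shh-/-, where rep1 had a median of 0%. A two-sided exact permutation test over libraries gave p = 0.667. Without Shh-/- rep1 the difference was 0.619 points. Among the 46, the inhibitor genes Cdkn2d and Cdkn1c are named because of their values. Cdkn2d was called at 99.7%, 98.8%, 98.4% and 99.7%, a stronger promoter than any member had. Cdkn1c was called at 91% in WT rep1, 54.1% in Shh-/- rep1 and 72.6% in Shh-/- rep2, but not in WT rep2. Cdc6 was called in the same libraries, at 82.2% in WT rep1, 14.6% in Shh-/- rep1 and 77.4% in Shh-/- rep2.

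Counted over whole windows, which cover 1.37 Mb, the lists held 88 peaks in WT rep1, 31 in WT rep2, 15 in Shh-/- rep1 and 54 in Shh-/- rep2. WT libraries averaged 59.5 ± 40.3 peaks (SD, n = 2) and Shh-/- libraries 34.5 ± 27.6 (SD, n = 2), a difference of 25 peaks that was smaller than the spread within WT (p = 0.667 in the same exact permutation test). Without WT rep1 the difference was -3.5 peaks. As a share of its list, each library gave a similar value, 0.225%, 0.259%, 0.268% and 0.293%. Here both Shh-/- libraries were above both WT libraries, with means of 0.242% ± 0.0239 (SD, n = 2) in WT and 0.28% ± 0.0171 (SD, n = 2) in Shh-/- and p = 0.33, the smallest value that the exact permutation test allows. The sign of this difference turned when weak peaks were left out, to 0.0283 percentage points at a score of at least 50 and 0.0179 at equal list size.

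**Figure D4:**
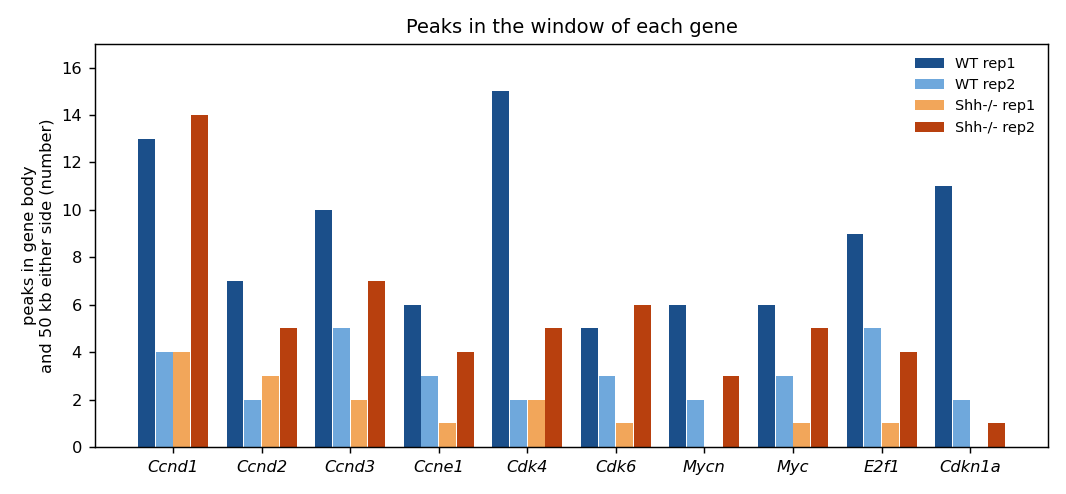
Number of peaks (vertical axis) in the body of each gene and the 50 kb on either side, with 1 bar per library. WT rep1 has the most peaks at 8 of the 10 genes, Shh-/- rep2 has the most at Ccnd1 and Cdk6, and Shh-/- rep1 has none at Mycn and Cdkn1a.

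Within the windows, the libraries differed most in peaks away from promoters, and the same leaning on WT rep1 was present over all regions. Of the regions outside promoters, 60.8% of the 51 in the windows were called in WT rep1 alone, beside 66.6% of all 27184. Of the window peaks, 43 of 88 in WT rep1 lay outside all promoters, compared with 6 of 31 in WT rep2, 4 of 15 in Shh-/- rep1 and 19 of 54 in Shh-/- rep2. Promoters of the members themselves held 20, 13, 5 and 19 peaks. WT rep2 had no peak in an exon outside promoters and neither had Shh-/- rep1. By region, 45 of the 99 were called in WT rep1 alone (45.5%, beside 51.6% of all regions). Called in Shh-/- rep2 alone were 8 of the 99, beside 3275 of all 44692 regions. Called in WT rep2 alone were 2, beside 1911, and in Shh-/- rep1 alone 1, beside 453.

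None of the 99 regions was WT-specific, that is, called in both WT libraries and in neither Shh-/- library, where 2.09% of all regions were. None was Shh-specific, where 0.396% of all regions were. Regions called in all 4 libraries numbered 9 (9.09%, background 7.97%), and 21 were called in 3 (21.2%, background 13.6%). Of those 21, 4 were missing from WT rep2 alone, beside 1012 of all 44692 regions. The other 17 were missing from Shh-/- rep1 alone (17.2% of the 99, beside 11.3% of all regions). These 17 had a median GC content of 71.5%, while the 9 called in every library had a median of 64.5%, and over all regions the same classes had medians of 68.5% and 62%. The part of GC content in these calls was not tested.

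The 9 regions called in every library were the promoter regions of Ccnd1, Ccnd2, Cdk4 and Myc, the Ccnd1 intronic and Ccne1 intergenic regions, and the promoters of Taf8, Usp49 and Pxmp4. Outside promoters 2 of 51 regions belonged to this class (3.92%, beside 1.73% of all regions outside promoters), and at promoters 7 of 48 (14.6%, beside 17.7%). At equal list size, 27 regions were left in the windows, of which 8 were called in all 4 libraries (background 28.6%). Then 2 were WT-specific (background 3.7%) and 0 Shh-specific (background 3.28%). The 2 regions were the LTO1 promoter and the Ccnd3 intronic region 6.18 kb from the nearest TSS, which in the full list of Shh-/- rep2 were both called, at rank 8993. With all peaks kept but the windows widened to 100 kb, 2 other regions were WT-specific, both in the Ccnd3 window, at the promoter of Tomm6 and at an exon of Gm20517.

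**Figure D5:**
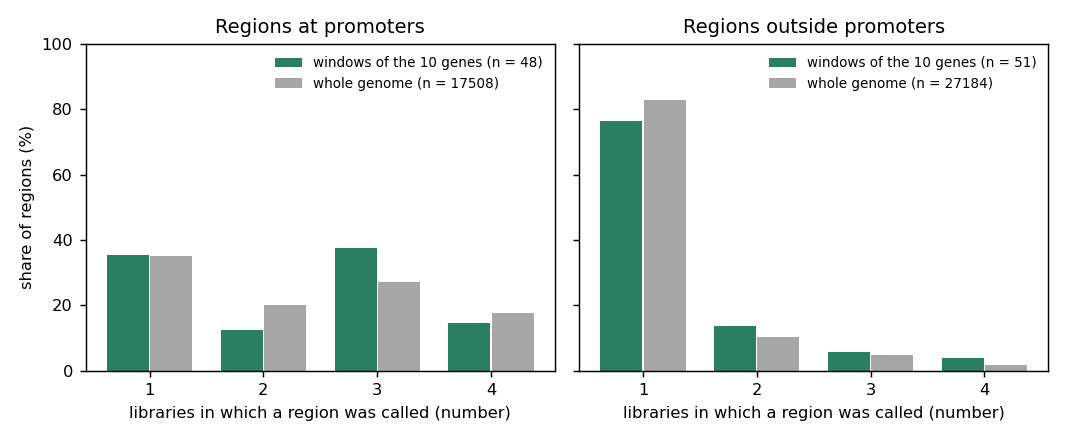
Share of regions (vertical axis, %) called in 1, 2, 3 or 4 libraries, at promoters (left) and outside them (right), for the windows of the 10 genes (green) and for the whole genome (grey). At promoters, 37.5% of the window regions were called in 3 libraries and 14.6% in 4, beside 27.3% and 17.7% genome-wide, and outside promoters most regions in both sets were called in 1 library.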

How the data were processed

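The data are ATAC-seq peak lists of 4 libraries, and groups were read from the genotype in the titles. The authors sequenced paired ends and called peaks in each library separately with MACS2 at q-values up to 0.05, using windows of 200 bp. The name that each list carries gives a cutoff of 1.3, a minimum length of 200 bp and a maximum gap of 200 bp. The submitters' processing notes name Bowtie2 2.2.5, MACS2 2.1.0 and mm10. Read filters and any shift for the Tn5 cut are not given in the sources used here. Each deposited list gives the position, summit and score of a peak. The score of the authors, whose scale the files do not state, was used to order peaks within a list. The alternative with a score of at least 50 also applied it as the same cutoff to all 4 lists. Whether a score of 50 means the same in each list is unknown. Fold, p-value and q-value columns contained nothing but 0 and were not used. The lists carry no counts, so depth is unknown and the differential test of the study was not repeated.

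Peaks of the 4 lists that overlapped by 1 bp or more were merged into regions and annotated with GENCODE M21 (basic set). The percentile of a peak is the share of its list with a lower score plus the tied share up to its middle. GC content and motifs were read in a stretch of 200 bp centred on a region's best summit. Distances are to the nearest annotated TSS of the gene unless stated. For RefSeq promoter sequences (250 bases before to 50 after a start), 7 of the 10 genes matched, and Ccnd1, Ccnd2 and Myc did not. Genotypes were compared by two-sided exact permutation tests over libraries, which with 2 against 2 allow no p-value under 0.33. All 10 genes are described, with every region at their promoters and, per gene, the region outside promoters called in most libraries. The members, the 46 other cell cycle genes and the markers were chosen with earlier results of these data known. Python 3.11.15, numpy 2.4.6, scipy 1.17.1 and pysam 0.24.0 were used, and the merging and percentile steps were tested on simulated data. Alternatives were a score of at least 50, equal list size, leaving out each library, windows of 10 and 100 kb, placement by summit, sharing by summits within 250 bp, promoters of 500 bp on either side, the annotated 5′ end of the gene, genes called in all libraries, and pairing by replicate number. The use of ranks, and the counts of genes ahead in both libraries of a genotype, were added after seeing the data.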

Additional observations from a re-analysis of the deposited data

How the results depend on the processing

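The exact permutation test used here cannot pass 0.05 with 2 libraries per genotype, so values and directions are compared. The lists do not hold depth, and its part in the calls was not tested. Leaving out 1 library at a time moved the peak difference (25) between -3.5 and 53.5, the share difference between -0.0553 and -0.0215 points, WT-specific regions between 0 and 45, Shh-specific regions between 0 and 8, regions called in all libraries between 9 and 26, members called at the promoter in all libraries between 4 and 10, the median percentile difference between 0.619 and 82.3 points, members ahead in both WT libraries between 3 and 10, and members ahead in both Shh-/- libraries stayed at 0. The 26 regions, the 10 members called in all libraries and 0.619 points came without Shh-/- rep1, the 45 regions without WT rep2, and the -3.5 peaks without WT rep1. The share difference turned to 0.0283 at a score of at least 50 and 0.0179 at equal list size. WT-specific regions numbered 1 at a score of at least 50 (the noncoding promoter 46.2 kb from Ccne1), 2 at equal list size, 2 with windows of 100 kb and 1 when sharing was judged by summits (the Cdkn1a promoter). With windows of 100 kb 21 regions were called in all libraries, and with promoters of 500 bp 2 members were. Members ahead in both WT libraries numbered 0 at a score of at least 50 and 5 by rank. Members ahead in both Shh-/- libraries numbered 1 at equal list size and 1 by rank. With 1 library left in a genotype, a region called in that library alone counts as specific. The 45 regions were those of WT rep1 alone, and the 8 were those of Shh-/- rep2 alone. In the same way, being called in all libraries, or ahead in both of a genotype, then refers to the libraries that remain. Beyond these definitions, the cause was not tested for any of the changes.

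Replicate numbers name separate embryos and pair nothing. With the replicate number as a block the differences were again 25 peaks, -0.0384 points and 41.4 points, with exact sign-flip p-values of 1, 0.5 and 1 and 0.5 the smallest possible. For single genes, Ccnd3 and Cdkn1a had a promoter peak in 0 libraries when only the annotated 5′ end of the gene counted. At a score of at least 50, Ccnd3, Cdk6 and Mycn had one in 2 libraries and Cdkn1a in 1. At equal list size, Ccnd3 and Mycn had one in 1 library and Cdk6 and Cdkn1a in 0.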
